A study of Homo sapiens with 6 samples.

Results

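Open chromatin was examined at the HOXA cluster and at the genes MEIS1 and PBX3 in 3 B-lineage acute lymphoblastic leukemia lines. Members were all ATAC-seq peaks overlapping 1 of 3 hg19 windows, so that within a window position alone decided. The windows themselves were chosen with earlier results of these data known. They were chr7:27120000-27260000 for HOXA5, HOXA7, HOXA9, HOXA10 and their neighbours in the cluster, chr2:66650000-66820000 for MEIS1 and chr9:128490000-128740000 for PBX3. Together they held 233 of 718792 peaks, which joined into 41 of 130872 merged regions: 15 at HOXA, 18 at MEIS1 and 8 at PBX3.

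ATAC-seq uses the Tn5 transposase to insert adapters into accessible DNA. The lines were RS4;11, SEM and one labelled RCH, read as RCH-ACV because the growth protocol names that line. Each was studied with a non-targeted control (NT) or with sh2, a knockdown of the histone H3 lysine 36 methyltransferase NSD2. As background, the fusion gene of RS4;11 and of SEM (the fusion lines below) is KMT2A-AFF1, which RCH-ACV lacks. The series concerns an NSD2 mutation in relapsed childhood leukemia, and the sample labels do not say which lines carry it, nor whether a line is a single clone. Each of the 6 samples, 1 per line and condition, came with 2 peak lists, called here list 1 and list 2 and treated as 2 libraries. Whether separate cultures lay behind them is not stated, so their spread may be technical. Between RS4;11 and SEM on one side and RCH on the other there are 2 lines against 1, which leaves no test over lines.

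HOXA genes encode homeodomain transcription factors that are active in blood stem and progenitor cells and are normally shut down as B cells mature. MEIS1 and PBX3 encode homeodomain proteins of another class (TALE) that bind DNA together with HOXA9 and HOXA10. Proteins made from KMT2A fusions bind the HOXA cluster and MEIS1 and keep them active, and this programme is a known hallmark of leukemias with such fusions.

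The promoters of HOXA9, MEIS1 and PBX3 are shown because these genes stand for 3 patterns described below. HOXA9 lies in a cluster open in all lines, with added peaks, many of them weak, in the fusion lines. MEIS1 is a locus with few peaks in RCH, and PBX3 a locus much alike in all lines. The promoters are the 250 bases before the RefSeq start site in build GRCh38.p14, 5′ to 3′ along the gene. No hg19 sequence or gene annotation was used, so these positions cannot be laid over the hg19 peaks, and no peak is assigned to a gene's promoter here. Capitals mark motif matches.
HOXA9, chr7:27165538-27165787, minus strand: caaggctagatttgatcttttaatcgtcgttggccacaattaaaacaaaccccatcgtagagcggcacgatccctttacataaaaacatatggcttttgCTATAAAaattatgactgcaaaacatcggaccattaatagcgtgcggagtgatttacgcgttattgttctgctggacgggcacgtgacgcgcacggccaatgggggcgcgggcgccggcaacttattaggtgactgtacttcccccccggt
MEIS1, chr2:66434875-66435124, plus strand: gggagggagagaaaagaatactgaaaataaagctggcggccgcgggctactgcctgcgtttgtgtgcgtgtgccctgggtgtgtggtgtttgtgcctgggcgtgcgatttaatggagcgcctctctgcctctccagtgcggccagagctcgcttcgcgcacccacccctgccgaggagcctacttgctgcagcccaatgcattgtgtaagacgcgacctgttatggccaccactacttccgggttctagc
PBX3, chr9:125747933-125748182, plus strand: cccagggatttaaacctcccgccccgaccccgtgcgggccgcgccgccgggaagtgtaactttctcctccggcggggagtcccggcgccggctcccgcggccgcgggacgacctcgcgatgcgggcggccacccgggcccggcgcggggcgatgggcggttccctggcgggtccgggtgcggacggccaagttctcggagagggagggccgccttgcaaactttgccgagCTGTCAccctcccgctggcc

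Of the 6 named genes, 5 had a promoter in the RefSeq table, HOXA10 with 2 starts. Searched on both strands were TGATTNAT (bound by PBX with HOX), TGACAG (bound by MEIS), TTTATNG (bound by HOX proteins of the HOXA9 to HOXA13 type) and the CTCF core. HOXA9 and the outer start of HOXA10 each held 1 TTTATNG match, read on the other strand as CTATAAA, whose letters also contain those of a TATA box. PBX3 held 1 TGACAG match, read as CTGTCA, and HOXA7, MEIS1 and the inner HOXA10 start held none of the 4 motifs. Of all 35116 promoters of this length in the table, 8.93% held TTTATNG, 13.0% held TGACAG, 2.48% held TGATTNAT and 0.0513% the CTCF core. The members' promoters had 16 to 36 CpG pairs, against a median of 11 over the table, and a GC content of 48.8% (HOXA9) to 75.6% (PBX3), against a median of 58.0%.

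The lists differed in length, which bears on every count below. They held 41594 to 84794 peaks on the autosomes and X. The RS4;11 lists had 61551 to 84794, the SEM lists 53837 to 64200 and the RCH lists 41594 to 57088, the 2 shortest being RCH sh2. The SEM NT lists, with 53837 and 55072 peaks, were shorter than the RCH NT lists, with 56511 and 57088. The authors deposited 1 value with every peak, taken to be its fold enrichment over the background of the same library. It is not normalized between lists, so folds of different lists show no change in level, and ranks are given as the percentile of a peak's fold within its own list. True sequencing depth is unknown.

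At MEIS1, all 8 lists of RS4;11 and SEM held more peaks than any RCH list. RS4;11 had 12 and 13 peaks (NT) and 10 and 11 (sh2). SEM had 10 and 11 (NT) and 13 in both sh2 lists. RCH had 2 and 4 (NT) and 0 and 1 (sh2). The groups of lists did not overlap, at 10 to 13 against 0 to 4, and the means over lines were 11.6 and 1.75. Of 16347 tiles of the same 170 kb across the genome with at least 1 peak, 5.24% were separated in this direction, and the median difference over tiles was 0.75 peaks against 9.88 at MEIS1. Covered bases separated too, with 3179 to 5042 bp in the lists of RS4;11 and SEM and 0 to 1356 bp in those of RCH, as in 16.4% of tiles. When every list was reduced to its 41594 peaks of highest fold, the lists of RS4;11 and SEM held 4 to 7 peaks at MEIS1 and those of RCH 0 to 2. The separation was thus also seen in lists of equal length, with a mean difference of 3.88 peaks. Of the tiles of this size, 2.22% were separated in this direction at equal length.

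**Figure D1:**
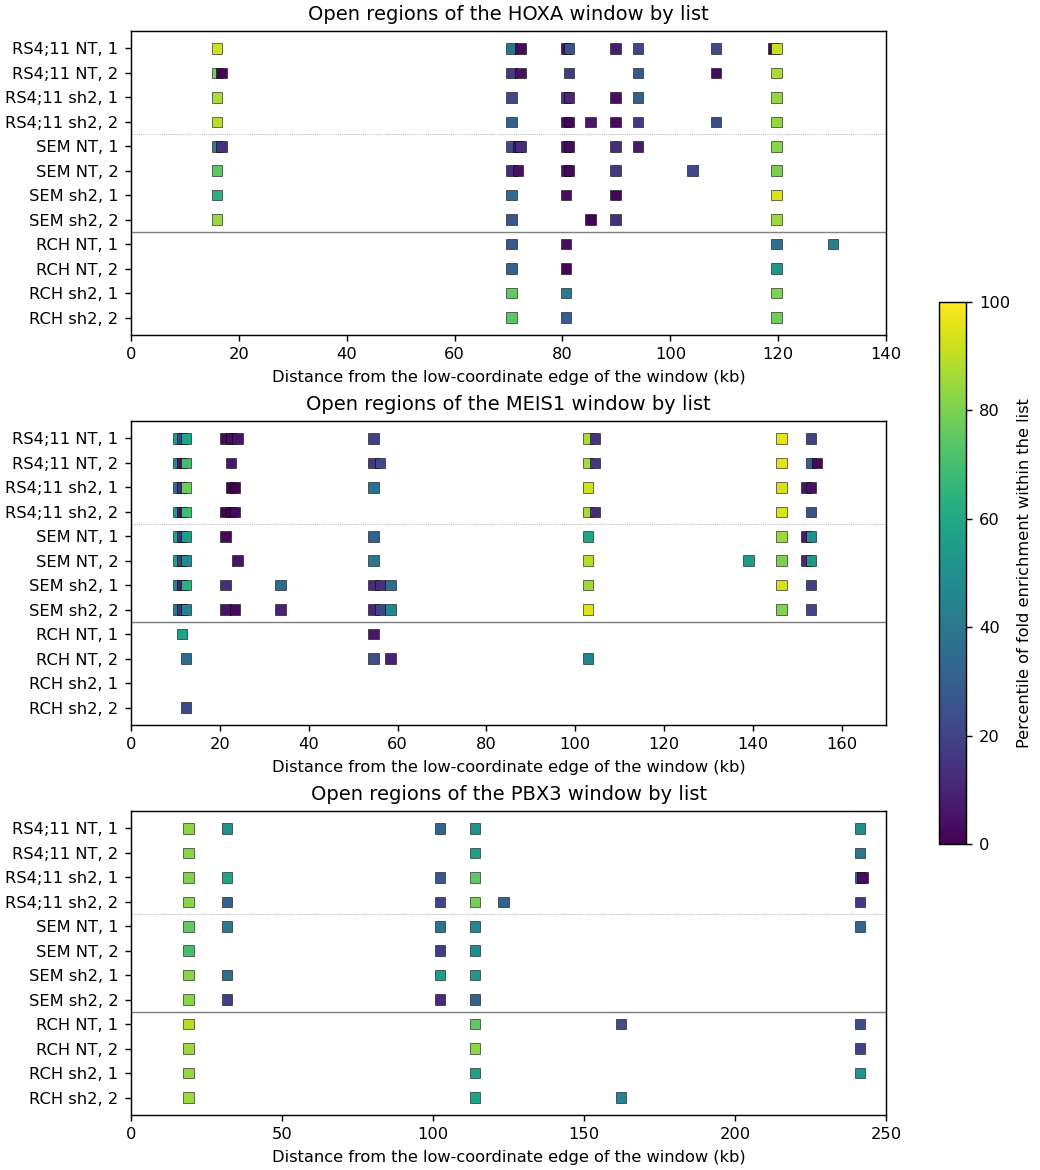
Merged regions with a peak (squares) in each of the 12 lists (rows, sample and list number) by distance from the low-coordinate edge of the window in kb, coloured by the percentile of the peak's fold enrichment within its list (the highest where a region held several peaks). The grey line parts RS4;11 and SEM from RCH. The MEIS1 window is nearly empty in RCH, and PBX3 looks much alike in all lines. HOXA shows weak added peaks from 72 to 108 kb in RS4;11 and SEM, and a stronger added region at 15.5 kb.

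Across the 3 windows, 4 of 41 regions (9.76%) had a peak in all 8 lists of RS4;11 and SEM and in none of the 4 RCH lists, against 1.44% of all merged regions. MEIS1 held 3 of them, HOXA 1 and PBX3 0. The reverse, a peak in all 4 RCH lists and in no other, was found at 0 of 41 members and at 0.889% of all regions. With NT lists alone the fusion lines' class held 5 of 36 regions (3.62% genome-wide), and with sh2 lists alone 9 of 32 (8.91% genome-wide). Of the 39 member regions open in at least 1 list of RS4;11 or SEM, 28 (71.8%) had no peak in any RCH list, against 49.5% genome-wide. Of the 13 open in at least 1 RCH list, 2 (15.4%) had no peak in the other lines, against 21.7% genome-wide.

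The strongest of the 4 lay in the MEIS1 window at chr2:66796128-66796819, 146 kb from the window's low-coordinate edge. In RS4;11 its folds were 17.2 and 16.6 (NT) and 15.6 and 15.8 (sh2). In SEM they were 10.5 and 9.59 (NT) and 13.3 and 10.1 (sh2). These ranked at percentiles 80.3 to 95.8 of their lists, so that the region was among the higher peaks of each of the 8 lists while RCH had none. Just beyond it lay the widest region of the window, chr2:66802426-66803720, 1295 bp long and made of up to 3 peaks per list. It was weak, with folds of 3.72 to 6.54 and percentiles of 4.47 to 53.5, and only 2 lists, both SEM, held it once lists were of equal length.

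The third MEIS1 region of this class, chr2:66660446-66660928, was the first of 3 neighbours near the low-coordinate edge, the end at which MEIS1, a plus-strand gene, begins. Its folds were 5.87 to 7.45 in the 8 lists, at percentiles 35.2 to 58.1. The next, chr2:66661149-66661705, had a peak in all 8 lists at folds of 3.59 to 4.58, and in RCH in NT list 1 alone, at 6.64. The last, chr2:66661990-66662603, had folds of 6.10 to 10.9 in the 8 lists and was found in RCH NT list 2 (5.16) and sh2 list 2 (4.09). Each RCH list with a peak here thus held only 1 of the 3 neighbours, whereas all lists of RS4;11 and SEM held all 3.

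The remaining strong MEIS1 region, chr2:66752692-66753166, had the highest mean percentile in the window over all 12 lists, with 0 given to a list without a peak. In RS4;11 its folds were 13.3 and 13.0 (NT) and 15.0 and 12.9 (sh2). In SEM they were 6.93 and 11.2 (NT) and 11.0 and 13.95 (sh2). In RCH it was found once, in NT list 2 at a fold of 5.79, so it missed the class by 1 list. No region of the MEIS1 window was open in all 12 lists, a state held by 16.5% of all regions. The other 12 regions of the window had mean percentiles of at most 16.4 over the 12 lists, and RCH held a peak in 2 of them.

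**Figure D2:**
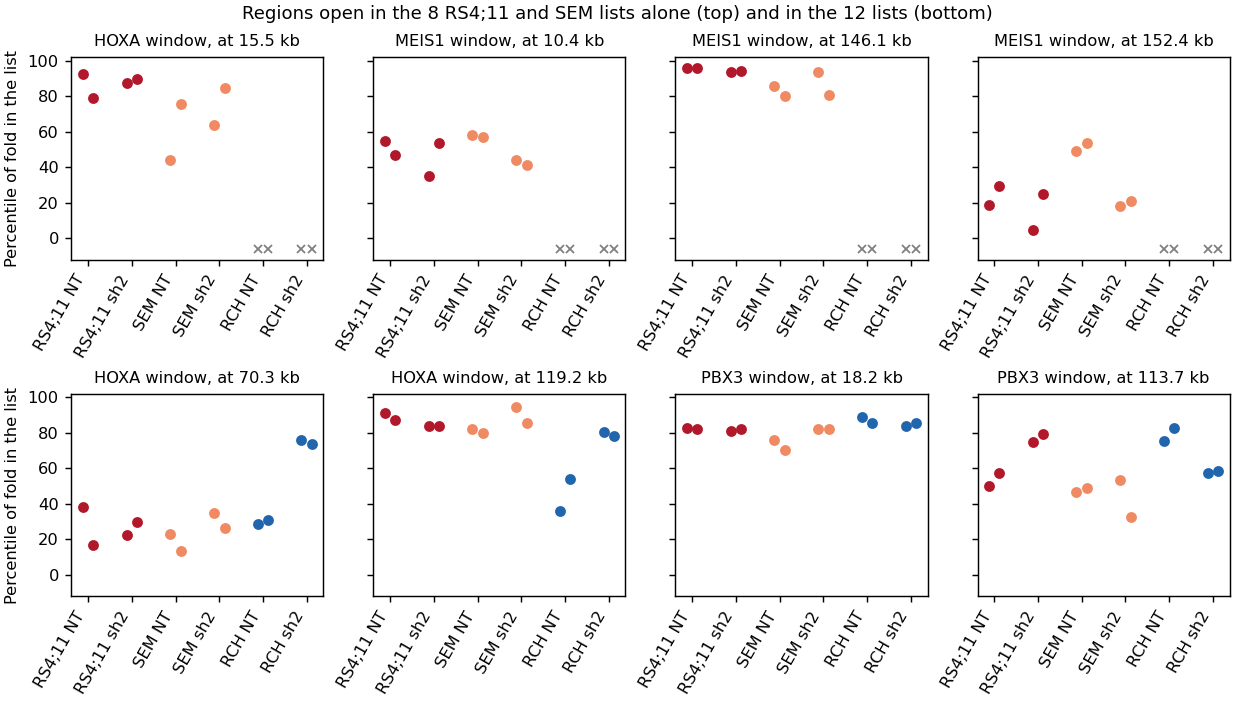
Percentile of the fold enrichment within the list (y axis) for each of the 2 lists (points) of the 6 samples (x axis); crosses under 0 mark lists without a peak. The 4 upper regions have a peak in all 8 lists of RS4;11 and SEM and no RCH list, and the 4 lower ones in all 12 lists.

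The HOXA cluster was not closed in RCH. RS4;11 had 10 and 9 peaks (NT) and 9 and 10 (sh2), SEM 10 and 8 (NT) and 5 and 6 (sh2), and RCH 4 and 3 (NT) and 3 in both sh2 lists. The 5 to 10 peaks of RS4;11 and SEM did not overlap the 3 to 4 of RCH, as in 4.72% of tiles of 140 kb. The median difference over these tiles was 0.625 peaks, against 5.12 at HOXA. Covered bases were 2028 to 3984 bp against 881 to 1306 bp, as in 15.0% of tiles. Most HOXA peaks of RS4;11 and SEM were weak: 44 of the 67 (65.7%) lay under the 25th percentile of their lists, against 2 of 13 in RCH. At or above the 75th percentile lay 14 of the 67, against 3 of 13 in RCH. The excess was thus largely of weak peaks, but it also held a stronger region absent from RCH, chr7:27135499-27136308, described below. With all lists at equal length, the fusion lines had 2.25 peaks on average and RCH 2.75, so the direction turned. The cut fell at unlike folds in many of the lists. The lowest fold kept was 5.68 to 6.71 in RS4;11, 4.71 to 5.44 in SEM, 4.73 and 4.78 in RCH NT, and 3.38 and 1.98 in RCH sh2. Weak HOXA peaks were thus removed from the RS4;11 and SEM sh2 lists at folds at which RCH peaks were kept. In SEM NT the lowest folds kept, 4.71 and 4.80, were much the same as in RCH NT. There SEM NT kept 3 and 2 HOXA peaks and RCH NT also 3 and 2. The cause of the turn was not tested. An alternative chosen after seeing the data took the NT lists alone at the length of the shortest, 53837 peaks. The averages were then 5.75 in the fusion lines and 2.50 in RCH, and the share of tiles separated at this length was not counted. The uncut SEM NT lists had 10 and 8 HOXA peaks and the slightly longer RCH NT lists 4 and 3.

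A single HOXA region separated the lines under equal length as well. It lay at chr7:27135499-27136308, 15.5 kb from the low-coordinate edge. In RS4;11 its folds were 15.4 and 11.0 (NT) and 13.3 and 13.8 (sh2). In SEM they were 5.88 and 8.84 (NT) and 7.69 and 10.8 (sh2). RS4;11 peaks ranked at percentiles 78.8 to 92.5 and SEM peaks at 44.1 to 84.3, and RCH had no peak. In lists as deposited, 1.44% of all merged regions had this pattern, and the share at equal length was not counted.

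Toward the high-coordinate edge, chr7:27239248-27240233 was open in all 12 lists and was the top region of the window. Folds were 12.2 to 14.8 in RS4;11 and 9.56 to 13.6 in SEM. In RCH they were 5.22 and 6.42 with NT and 8.61 and 8.09 with sh2. Within their lists the RCH NT peaks ranked at percentiles 36.0 and 54.2 and the RCH sh2 peaks at 80.6 and 78.3, while those of RS4;11 and SEM ranked at 80.1 to 94.3. Both RCH NT lists thus ranked it below the other 10 lists, though ranks from lists of unequal length show no change.

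In the middle of the cluster, the stretch that holds HOXA5, HOXA7, HOXA9 and HOXA10 in RefSeq's order, chr7:27190265-27190776 was also open in all 12 lists. Folds were 4.45 to 5.51 in RS4;11, 4.27 to 5.43 in SEM, 4.86 and 5.00 in RCH NT and 7.85 and 7.40 in RCH sh2, the 2 RCH sh2 values being the highest. The region chr7:27200268-27200944 was held by all 4 RCH lists and by 3 lists each of RS4;11 and SEM, at folds of 3.32 to 4.96. All other regions of the middle stretch were absent from RCH and weak in the fusion lines. Among them chr7:27209532-27210063 had a peak in 7 of 8 lists at folds of 3.14 to 4.36, and chr7:27201049-27201414 in 6 of 8 at 3.17 to 4.68. The region chr7:27213837-27214172 was seen in all 4 RS4;11 lists at 4.52 to 5.58 and in 1 SEM list at 3.79. None of these 3 kept a peak at equal length, where the lowest fold kept was 4.71 to 6.71 in the lists of RS4;11 and SEM. A lone RCH NT peak at chr7:27250051-27250264, with a fold of 5.63, was the only HOXA region without a peak in RS4;11 or SEM.

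**Figure D3:**
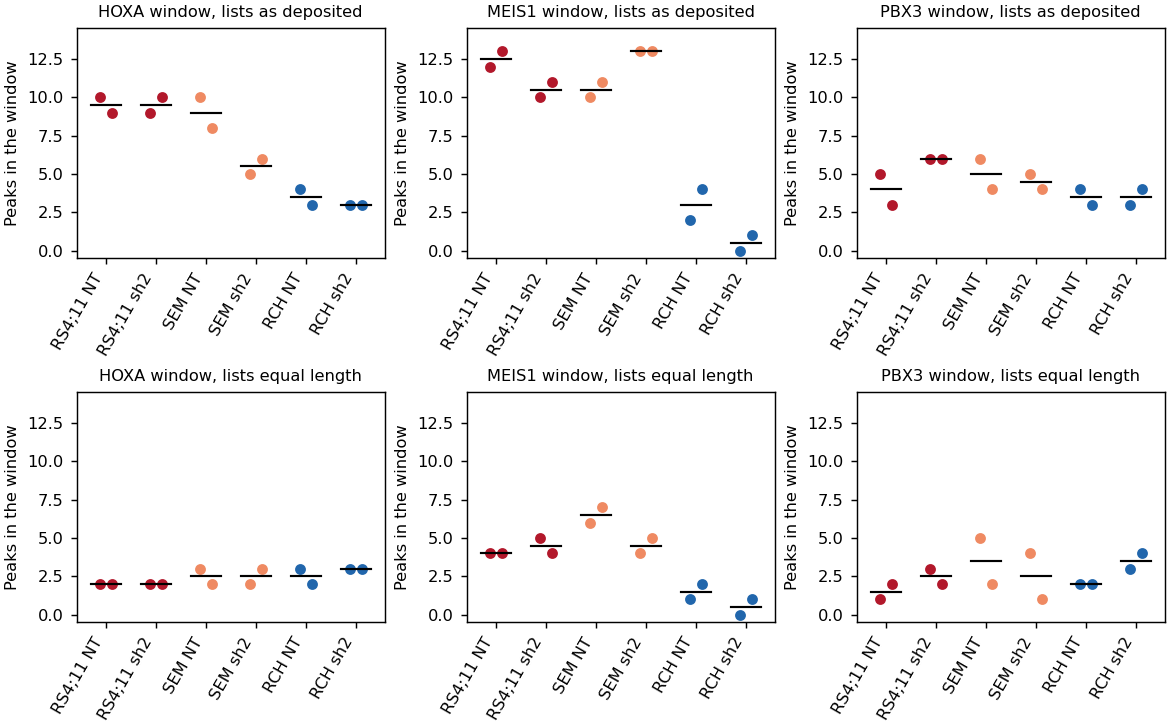
Number of peaks in each window (y axis) for the 2 lists (points) of each sample (x axis), with their mean (bar), in the lists as deposited (top) and reduced to the 41594 peaks of highest fold (bottom). RCH lies below the other lines at MEIS1 in both rows and at HOXA in the upper row alone.

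PBX3 differed least between the lines. RS4;11 had 5 and 3 peaks (NT) and 6 in both sh2 lists, SEM 6 and 4 (NT) and 5 and 4 (sh2), and RCH 4 and 3 (NT) and 3 and 4 (sh2). The lists overlapped in number, whereas 6.21% of tiles of 250 kb were separated with the fusion lines higher. Covered bases, 1830 to 2617 bp against 1550 to 1948 bp, overlapped as well, and 18.6% of tiles were separated in this direction. The mean difference of 1.38 peaks was close to the median of 1.12 over tiles.

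The main PBX3 region, chr9:128508220-128509800, spanned 1581 bp near the low-coordinate edge, the end at which PBX3, a plus-strand gene, begins. It was open in all 12 lists. Folds were 11.7 to 12 in RS4;11, 8.16 to 10.4 in SEM and 9.20 to 11.6 in RCH, and percentiles lay between 70.1 and 88.8 in every list. The second region found in all 12 lists, chr9:128603660-128604082, was less even. In RS4;11 its folds were 6.67 and 7.63 (NT) and 10.5 and 11.2 (sh2), in SEM 5.29 to 6.67, and in RCH 8.77 and 9.86 (NT) and 5.91 and 5.88 (sh2). Its rank was higher with sh2 in RS4;11 and higher with NT in RCH, which is a description, since lists differ in length.

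Between these 2 regions lay both PBX3 regions that were repeatedly found in the fusion lines and never in RCH. The region chr9:128521510-128521841 had a peak in 3 lists of each fusion line at folds of 4.56 to 8.10. The region chr9:128592000-128592481 had one in 3 RS4;11 and 4 SEM lists at 4.21 to 6.83. The reverse was seen at chr9:128651982-128652405, with a peak in 2 RCH lists at 4.58 and 5.04 and in no other list. Near the high-coordinate edge, chr9:128731128-128731539 was found in 4 RS4;11, 1 SEM and 3 RCH lists.

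Overlap between lists was compared next. The Jaccard index, the bases under peaks of both lists over the bases under peaks of either, averaged 0.509 between RS4;11 and SEM lists at MEIS1 (16 pairs, 0.425 to 0.602). At MEIS1 it averaged 0.0941 between RS4;11 and RCH and 0.0948 between SEM and RCH, and no such pair exceeded 0.258. The RCH lists overlapped each other no better there: the index was 0 in 5 of their 6 pairs and 0.204 in the other. The low index with RCH at MEIS1 therefore says no more than that RCH had few peaks there. At HOXA the averages were 0.434, 0.197 and 0.287 in the same order, and at PBX3 0.588, 0.537 and 0.506. The pairs of RS4;11 with SEM and those with RCH did not overlap at MEIS1, overlapped slightly at HOXA (0.333 to 0.527 against 0.137 to 0.395) and overlapped widely at PBX3 (0.464 to 0.737 against 0.380 to 0.818). Pairs share lists, and RCH sh2 list 1, with 0 peaks at MEIS1, had an index of 0 there in every pair. How often pairs separate in this way at other loci was not counted.

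NSD2 knockdown was then examined within each line, where 1 sample per condition allows no test. At HOXA, both SEM sh2 lists held fewer peaks than both SEM NT lists, with covered bases of 3326 ± 745 (SD, n = 2 lists) with NT and 2052 ± 33.2 with sh2, a difference of -38.3%. This ran against the length of the lists, since the SEM sh2 lists were the longer ones. Of tiles of 140 kb with a peak in SEM, 5.37% had fewer peaks and 14.2% fewer covered bases in both sh2 lists than in both NT lists. In lists of equal length the peak numbers were even, at 3 and 2 (NT) and 2 and 3 (sh2), while the log2 ratio of covered bases, sh2 over NT, was -0.39 against -0.70 in the lists as deposited. In RS4;11 and RCH the HOXA lists of NT and sh2 overlapped in peaks and in covered bases. At MEIS1, SEM had more covered bases with sh2, at 3958 ± 213 bp (NT) and 4905 ± 194 bp (sh2), a difference of 23.9%. RS4;11 had 4084 ± 6.36 bp (NT) and 3629 ± 636 bp (sh2), and RCH 998 ± 507 bp (NT) and 139 ± 196 bp (sh2), both with sh2 lists below NT lists. The RS4;11 lists were separated by 1 bp, at 4079 against 4078. These MEIS1 directions were those of the lengths of the lists in each line, and they were common: covered bases were separated in the same direction in 40.2% of tiles of 170 kb in SEM, 62.3% in RS4;11 and 58.8% in RCH. Peak numbers at MEIS1 were separated in the same directions, as in 24.1%, 37.0% and 35.3% of these tiles. In lists of equal length the log2 ratio of covered bases turned to -0.49 in SEM and to 0.27 in RS4;11, and was -2.22 in RCH. At PBX3, RS4;11 had 2048 ± 308.3 bp (NT) and 2523 ± 133 bp (sh2) without overlap of the lists, as in 3.52% of tiles of 250 kb, again against list length, and the lists of the other lines overlapped.

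**Figure D4:**
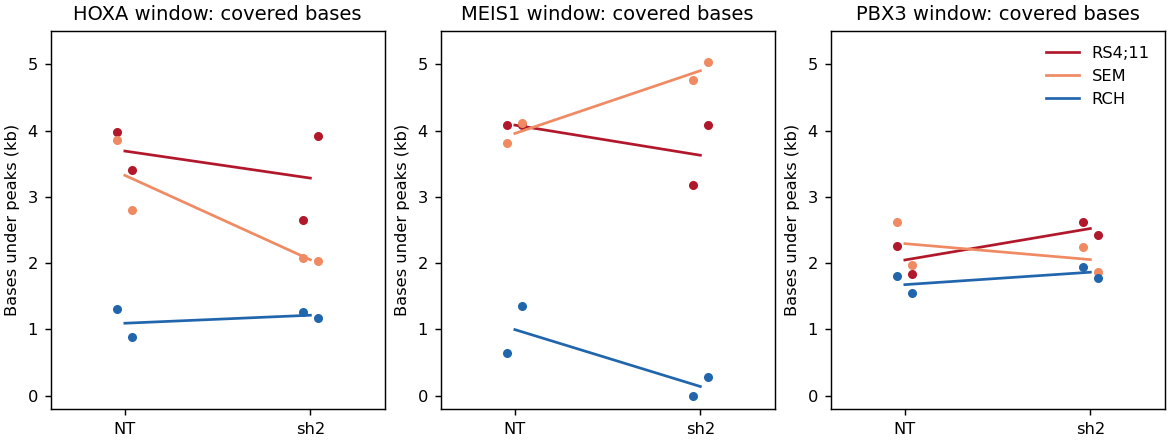
Bases under peaks in each window, in kb (y axis), with NT and sh2 (x axis), for the 2 lists of each sample (points), with lines joining the sample means of a cell line. SEM has lower values with sh2 at HOXA and higher ones at MEIS1, and RCH lies below the other lines at HOXA and MEIS1.

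Over the 3 lines, the mean log2 ratio of covered bases, sh2 over NT, was -0.24 ± 0.43 at HOXA, -0.90 ± 1.70 at MEIS1 and 0.10 ± 0.24 at PBX3 (SD, n = 3 lines). An exact two-sided sign-flip test, whose smallest possible p here is 0.25, gave p = 0.5, 0.75 and 0.75. No common effect of the knockdown could be shown, and with 3 lines none could have passed 0.05. No window had log2 ratios of one sign in all 3 lines, for peak number or for covered bases.

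Few member regions were open in both lists of one condition and in neither of the other, and their shares lay on both sides of those genome-wide. In SEM, 3 of 32 (9.38%) were NT-only, against 2.59% of all regions of the line, and 3 (9.38%) were sh2-only, against 7.69%. In RS4;11 there was 1 of 34 (2.94%) each way, against 9.79% NT-only and 0.854% sh2-only genome-wide. In RCH, 1 of 13 (7.69%) was NT-only, against 10.6% genome-wide, and 0 were sh2-only, against 1.90%. The NT-only regions of SEM were chr7:27191574-27191944 and chr7:27201049-27201414 at HOXA and chr2:66801868-66802111 at MEIS1, with SEM folds of 3.17 to 4.12. Its sh2-only regions all lay in the MEIS1 window, at chr2:66683511-66683784, chr2:66705917-66706180 and chr2:66708225-66708664, with SEM folds of 4.01 to 6.28. In RS4;11 the NT-only region was chr7:27192052-27192453 (3.25 and 3.60) and the sh2-only region chr2:66673080-66673691 (2.83 and 3.44). In RCH the NT-only region was chr2:66704292-66704945 (3.79 and 4.69), which RS4;11 and SEM held in 7 of 8 lists. Every one of these folds lay below the median of 6.37 over the peaks of the 12 lists.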

How the data were processed

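Per the submitters' processing notes, reads were processed with Bowtie2 and MACS2 on hg19. Versions, settings, duplicate removal, read shifting and depth were not stated in the sources used here. The 12 lists have 5 columns and no header. The last column, as deposited by the authors, was taken from its values to be the fold enrichment that MACS2 computes, a ratio of reads at the peak to the background of the same library.

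Peaks on the 22 autosomes and X were used (140 others left out). Touching or overlapping peaks of the 12 lists were joined into regions, and a list counted as having a peak in a region with at least 1 bp of overlap. Percentiles are ranks of fold within a list. Tiles start at position 0 of each chromosome and take a peak by its midpoint. The class rules were run on simulated lists with planted regions that kept the real borders. This checks only that the code applies the rules, not how weak peaks or list length affect the classes. The windows and lists, and through the windows the members, were chosen with earlier results of these data known. Within a window, position alone decided which peaks were members. Regions named are those of the classes and the 3 highest by mean percentile per window; others named were chosen after their values were seen. The cell line pairs NT with sh2, from the titles. Other HOX genes, lineage markers and hg19 sequence were planned only with an hg19 annotation and were not analysed here. Coordinates are 1-based. Python 3.11.15, numpy 2.4.6, pandas 2.3.3 and matplotlib 3.10.9 were used.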

Additional observations from a re-analysis of the deposited data

Results flagged for a closer look

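At MEIS1 the lists of NT and sh2 did not overlap in any line, and the lines moved in opposite directions in the lists as deposited. For the number of peaks, the log2 of sh2 over NT was 0.31 in SEM, -0.25 in RS4;11 and -2.58 in RCH. That of covered bases was 0.31, -0.17 and -2.85 in the same order. The difference between lines was not tested, since each line has 1 sample per condition. The RCH ratios rest on 3 and 0.5 peaks per list on average, and those of RS4;11 in covered bases on a gap of 1 bp between the nearest lists. Total list length moved in the same direction as these ratios in each line. In lists of equal length, the log2 ratio of peak number was -0.53 in SEM, 0.17 in RS4;11 and -1.58 in RCH, and that of covered bases -0.49, 0.27 and -2.22, so SEM and RS4;11 both turned sign.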

How the results depend on the processing

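List length moved 13 results and reversed 4, and the limit on fold moved 14 and reversed 3. With all lists at equal length, the fusion lines minus RCH came to -0.5 peaks, 233.5 covered bases and 7.10 in summed fold at HOXA, to 3.88, 1582 and 40.2 at MEIS1, and to -0.25, -15.4 and 0.0043 at PBX3. As deposited these were 5.12, 1934 and 30.5, then 9.88, 3576 and 63.8, then 1.38, 460 and 8.36. Folds are not normalized between lists, so differences in summed fold, here and below, show no difference in level between lines. HOXA and PBX3 thus turned in peak number and PBX3 in covered bases, while MEIS1 kept its direction. The cut to equal length fell at a different fold in each list, from 1.98 in RCH sh2 list 2 to 6.71 in RS4;11 NT list 1. HOXA and PBX3 had 1 region each open in all 12 lists, and in RS4;11 both knockdown classes fell to 0, with SEM at 0 sh2-only and RCH at 0 NT-only and 1 sh2-only. The mean log2 sh2 over NT of HOXA peaks became 0.088.

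The limit on fold was set at the pooled median of 6.37. The median fold of a list ran from 5.32 (RCH sh2 list 2) to 7.10 (RS4;11 sh2 list 1), so the limit kept unlike shares of the lists. With only folds at or above it, the difference at HOXA was 0.625 peaks, 612 bases and 12.6 in summed fold, and at MEIS1 3.38, 1404 and 36.5. HOXA then had 0 fusion-only regions and 0 open in all 12 lists, and PBX3 1 open in all. RS4;11 had 0 regions of either knockdown class, SEM 1 NT-only and 0 sh2-only, and RCH 1 sh2-only. The log2 sh2 over NT turned to 0.81 for HOXA peaks, 0.57 for HOXA covered bases and -0.088 for PBX3 peaks. The NT lists alone at equal length, an alternative chosen after seeing the data, gave 3.25 peaks and 24.4 in summed fold at HOXA, 4.5 peaks, 1847 bases and 40.3 at MEIS1, 1.30 in summed fold at PBX3, and 1 HOXA region open in all NT lists.

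When 50% of a region had to be covered, HOXA had 1 region open in all lists, MEIS1 1 fusion-only region, RS4;11 2 NT-only and 0 sh2-only, and RCH 0 NT-only and 1 sh2-only. Joining peaks within 200 bp left RS4;11 with 0 sh2-only regions. Without RS4;11, fusion-only regions were 2 at HOXA and 1 at PBX3, and the HOXA difference in summed fold 21.9. Without SEM these were 3 at HOXA and 39.1. Ranking by width in place of fold moved the median percentile from 21.3 to 45.1 at HOXA and from 20.9 to 50.4 at MEIS1. Counting shared regions in place of bases gave Jaccard indices of 0.526 (RS4;11 with SEM) and 0.351 (fusion lines with RCH) at HOXA and 0.567 (RS4;11 with SEM) at MEIS1. The cause of these shifts was not tested. Windows widened by 50 kb and peaks wholly inside them moved none of 27 results.

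Leaving out each list in turn gave 1 to 2 fusion-only regions at HOXA, 3 to 4 at MEIS1 and 0 to 1 at PBX3. NT-only regions were 1 to 4 in RS4;11, 3 to 7 in SEM and 1 to 3 in RCH, and sh2-only regions 1 to 5 in RS4;11 and 3 to 5 in SEM. The difference in peaks ran from 4.67 to 5.5 at HOXA, 9.29 to 10.6 at MEIS1 and 1.17 to 1.71 at PBX3. Without the pairing by line (no replicate block), an exact two-sided permutation of the 3 NT and 3 sh2 samples, which cannot go below 0.1, gave p from 0.6 to 0.9 with the mean log2 values as reported, such as -0.31 for HOXA peaks. For MEIS1 no log2 ratio could be had where RCH sh2 had 0 peaks, which was so under the fold limit and without RCH sh2 list 2.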
